A study of Mus musculus with 6 samples.

Results

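ADAMTS proteins are secreted metalloproteases that carry a catalytic zinc ion and thrombospondin type repeats, and they cut proteins of the extracellular matrix. Different branches of the family trim procollagens, cleave large proteoglycans such as versican, or act on fibrillin and fibronectin networks and on basement membranes. In the mammary gland, Adamts18 is known as a product of the myoepithelium that lies downstream of progesterone receptor and Wnt4 signalling, and Adamts16 is its closest relative in the family. The genes described here are Adamts18, Adamts16 and 8 other Adamts proteases, namely Adamts1, Adamts2, Adamts4, Adamts5, Adamts9, Adamts10, Adamts12 and Adamts15. They were taken by symbol from a table of 34590 gene symbols, and all 10 passed the filter on low read counts that kept 17345 genes. The other 9 Adamts genes in the table served for comparison.

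The libraries came from inguinal glands (gland number 4) of 3 WT host mice that did not carry EGFP, numbered 1 to 3. In each host the left fat pad, cleared of its own epithelium, received WT.EGFP+ epithelium and the right one received Adamts18-/-.EGFP+ epithelium. The Adamts18-/- allele lacks exons 8 and 9 in all donor cells, EGFP was driven by an actin promoter in both kinds of graft, and the mice were kept on the C57BL/6JOlaHsd background. Because WT grafts were always on the left, genotype and body side cannot be told apart, and host vessels, fat and stroma carried the intact Adamts18 gene in both glands. The age of the hosts at collection is not given in the sources used here.

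Total reads ranged from 53875123 to 71595924 per library, and the 19 Adamts genes together took between 32634 and 58671 of them. A floor of 3 reads corresponded to 0.0430 to 0.0574 CPM (read counts scaled to a common library total), and each of the 10 genes lay above this in every library. The labels call the material mammary epithelial cells sorted for GFP, whereas the paper's text speaks of glands. Stromal markers were abundant in all 6 libraries. The summed CPM of 12 fibroblast markers was 10021 to 13705 in WT and 12053 to 14113 in Adamts18-/- glands, and that of 10 adipocyte markers was 14116 to 28908 and 11128 to 29848. Summed pan-epithelial markers (24 genes) reached only 1328 to 2029 CPM in WT and 1010 to 1456 CPM in Adamts18-/- glands. Skeletal muscle markers (10 genes) summed to 322 to 3047 CPM in WT and 2081 to 11939 CPM in Adamts18-/- glands, and B cell markers (6 genes) reached 643 CPM in the Adamts18-/- gland of mouse 3 against 8.38 to 121 CPM elsewhere. The libraries are therefore called glands here.

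Adamts18 (ENSMUSG00000053399.9) lies on the minus strand at chr8:113697126-113848738 in the GRCm38 build, and its coding transcript has 23 exons, 5642 bases and 1219 codons. The 2 exons removed in the mutant are shown because they hold the segment encoding the catalytic zinc site, which is split between them. Both are wholly coding. Exon 8 covers chr8:113771036-113771141 and exon 9 covers chr8:113767046-113767183. Capitals mark the 33 bases of the zinc site, read 5′ to 3′ along the transcript.
Adamts18 exon 8: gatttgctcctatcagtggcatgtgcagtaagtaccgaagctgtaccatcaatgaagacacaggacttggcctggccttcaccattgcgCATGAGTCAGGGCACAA
Adamts18 exon 9: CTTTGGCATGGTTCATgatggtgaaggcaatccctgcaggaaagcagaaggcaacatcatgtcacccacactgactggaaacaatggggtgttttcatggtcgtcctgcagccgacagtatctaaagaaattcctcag

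Together these exons hold 244 bases, which is 4.32% of the transcript and 1 base more than a multiple of 3. If exon 7 were joined directly to exon 10, the reading frame would shift after 405 codons and meet its first stop at codon 456. The remaining bases of the transcript stay in the mutant gene. A read count over the whole gene therefore still includes any RNA transcribed from the mutant allele, and the counts used here are not divided by exon.

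The zinc site is the stretch that the family shares. The 33 bases that encode it in each of the 10 genes are given in order of likeness to Adamts18 at this site alone. Capitals mark bases equal to those of Adamts18 at the same position.
Adamts18 zinc site: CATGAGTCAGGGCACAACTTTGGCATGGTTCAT
Adamts16 zinc site: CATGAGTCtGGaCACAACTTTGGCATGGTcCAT
Adamts10 zinc site: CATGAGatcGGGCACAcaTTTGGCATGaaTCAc
Adamts12 zinc site: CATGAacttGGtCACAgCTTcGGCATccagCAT
Adamts2 zinc site: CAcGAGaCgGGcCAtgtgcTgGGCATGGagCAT
Adamts4 zinc site: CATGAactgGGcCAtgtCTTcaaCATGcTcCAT
Adamts5 zinc site: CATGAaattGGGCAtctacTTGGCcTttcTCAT
Adamts1 zinc site: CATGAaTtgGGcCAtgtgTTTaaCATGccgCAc
Adamts15 zinc site: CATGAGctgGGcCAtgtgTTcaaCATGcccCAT
Adamts9 zinc site: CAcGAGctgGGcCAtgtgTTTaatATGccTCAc

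Adamts16 matched Adamts18 at 30 of the 33 bases, Adamts10 at 25 and Adamts12 at 22. The other members matched at 18 to 21 bases. In all 10 genes a junction of exons splits this site. Over the whole coding sequence, Adamts16 also had the highest share of identical positions in a global alignment with Adamts18, gaps counted, at 61.9%. The other 8 genes had 39.3% to 50.5%. This share also falls where lengths differ, and coding sequences had 3669 bases in Adamts16 but from 2538 (Adamts4) to 5796 (Adamts9) in the others. It therefore mixes likeness of sequence with likeness of length. The longest run of bases that the Adamts18 transcript shared exactly with any of the 9 other transcripts was 17, found with Adamts16, which is short beside the 85-base reads.

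How strongly was each protease expressed in these glands? Levels were compared as CPM per kilobase of all annotated exons. In WT glands Adamts2, which removes the amino-terminal propeptide of fibrillar procollagens, stood at 18.9 ± 4.14 CPM per kilobase (SD, n = 3), and Adamts1, a proteoglycan-cleaving enzyme, stood at 18.8 ± 8.0. Adamts10, which binds fibrillin microfibrils, had 11.7 ± 0.492 CPM per kilobase. The proteoglycanases Adamts5 and Adamts15 followed with 9.17 ± 1.87 and 7.58 ± 1.80. Adamts12, which can cleave cartilage oligomeric matrix protein, had 4.70 ± 1.54 and the proteoglycanase Adamts9 had 3.47 ± 0.931.

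Adamts18 ranked 13th of the 19 Adamts genes in WT glands with 0.666 ± 0.310 CPM per kilobase. The aggrecan- and versican-cleaving Adamts4 had 0.520 ± 0.265 and Adamts16 ranked 18th with 0.205 ± 0.0603. The deleted gene thus made up 0.811% of the summed family level per kilobase in WT glands and 0.406% in Adamts18-/- glands. In this order, the means of Adamts2 and Adamts1, of Adamts1 and Adamts10, of Adamts5 and Adamts15, of Adamts12 and Adamts9, and of Adamts18 and Adamts4 were closer together than the larger SD of each pair. The other neighbouring members were further apart than that.

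**Figure D1:**
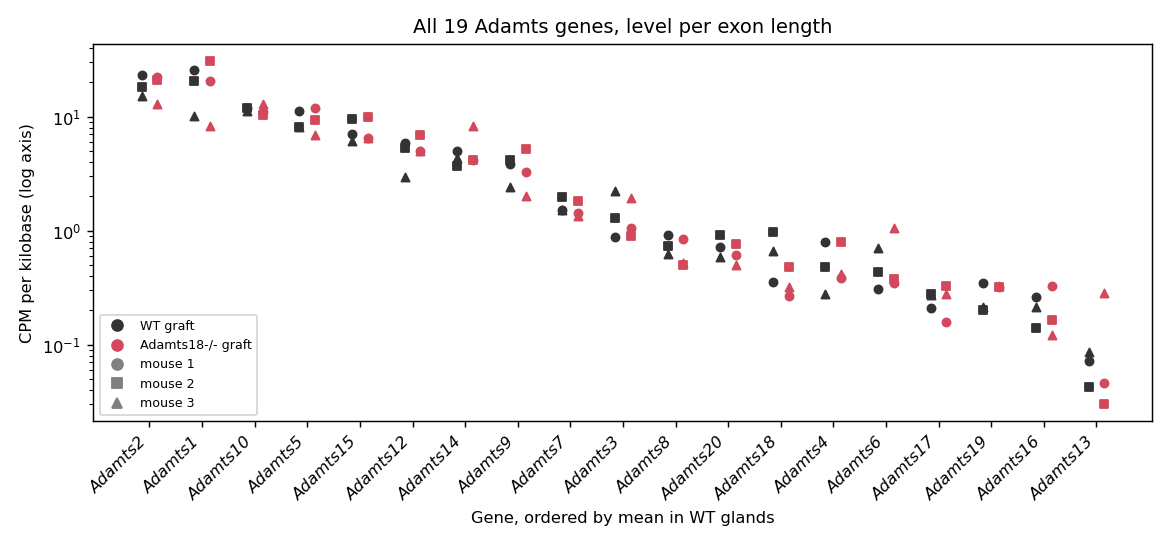
Level of each of the 19 Adamts genes in CPM per kilobase of exon on a log axis, ordered by the mean in WT glands, with one point per gland, colours for the graft's genotype and symbols for the host mouse. Adamts2 and Adamts1 lie at the left near 20 CPM per kilobase, whereas Adamts18, ranked 13, lies below 1 CPM per kilobase in every gland.

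Adamts18 was the only one of the 10 genes that differed between the grafts at the thresholds used by the study, which ask for a fold change below 0.8, or above the reciprocal of 0.8, together with an unadjusted p below 0.05. It had 3.61, 9.92 and 6.80 CPM in the WT glands of mice 1, 2 and 3, from 252, 608 and 383 reads. In the contralateral Adamts18-/- glands it had 2.75, 4.87 and 3.29 CPM, from 144, 295 and 202 reads. Within every mouse the mutant gland was the lower one, but the groups overlapped, because the WT gland of mouse 1 lay below the Adamts18-/- gland of mouse 2.

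The log2 difference of Adamts18 within a pair was -0.39 in mouse 1, -1.02 in mouse 2 and -1.04 in mouse 3. The fit gave a log2 fold change of -0.83 (SE 0.194, 95% interval -1.34 to -0.32), that is, 0.564 of the WT level. Its unadjusted p was 0.00922 by edgeR's quasi-likelihood test with the host as a block, and 128 of the 17345 genes tested had a smaller one. After Benjamini-Hochberg adjustment over these genes p was 0.987, and over the alternative settings the adjusted p ranged from 0.146 to 1.0. The lowest came from scaling to the myoepithelial markers, where 8351 of the 17345 genes had an adjusted p under 0.05. Under that scaling the log2 fold change of Adamts18 was weaker, at -0.37, with an unadjusted p of 0.109 by edgeR. Without the pairing of glands the log2 fold change was -0.90 with an unadjusted p of 0.0767, and without mouse 2 it was -0.72 with an unadjusted p of 0.0582, both outside the threshold.

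One of the 10 genes was thus lower past the thresholds, beside 1.84% of all genes tested (319 of 17345), and 0 were higher, beside 1.17% (203 of 17345). A lower value in all 3 mutant glands was seen for 1 of the 10 genes and for 12.7% of all genes. By adjusted p under 0.05 edgeR called 0 of the 10 genes and 0.00% of all genes. An unadjusted p under 0.05 was found for 1 of the 10 genes and for 3.86% of all genes. By adjusted p under 0.05 DESeq2 called 0 of the 10 genes, beside 71 of the 17345 genes tested.

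Adamts18 RNA did not disappear from the Adamts18-/- glands. Its CPM there was 76.2%, 49.1% and 48.3% of that in the WT gland of mice 1, 2 and 3. The allele still holds all other exons and the host cells are WT, so RNA from the mutant allele and RNA from host cells cannot be told apart in these counts.

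**Figure D2:**
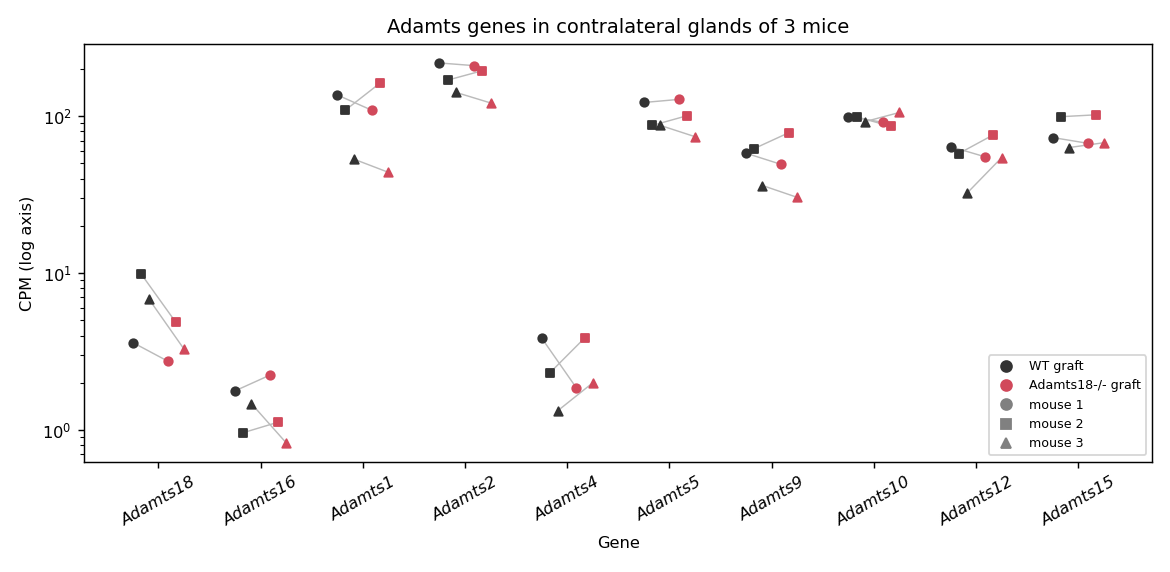
CPM on a log axis of the 10 genes in the WT (black) and Adamts18-/- (red) gland of each host, with grey lines joining the glands of a host and symbols for mice 1 to 3. All 3 lines slope down for Adamts18, whereas for each of the other 9 genes lines slope in both directions.

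Summed markers of the myoepithelium, the layer in which Adamts18 is known to be made, were also lower in the mutant gland of each pair. The 12 myoepithelial markers summed to 1372, 2369 and 1408 CPM in the WT glands of mice 1 to 3 and to 1111, 1713 and 935 CPM in the Adamts18-/- glands. The log2 differences of this sum were -0.30, -0.47 and -0.59 in mice 1, 2 and 3, and the exact sign-flip permutation test gave p = 0.25, the smallest that 3 pairs allow. Each of the 12 markers had a negative log2 fold change, between -0.63 and -0.11, and 10 of them passed the thresholds. That of Adamts18 was more negative than that of any of them. Of the 12 markers, 9 were lower in all 3 mutant glands, as were 12.7% of all genes. Krt5 and Krt14 were higher on the mutant side in mouse 1, by 0.14 and 0.02 on the log2 scale. Actg2 was higher there in mouse 2, by 0.27. Acta2 was the most abundant marker of the list, and how much of the sum came from host vessels or other host cells was not tested. Summed luminal markers (12 genes) differed by -0.21, -0.67 and -0.62 on the log2 scale, and pan-epithelial markers by 0.05, -0.76 and -0.48.

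Per 1000 reads on the 12 myoepithelial markers, the WT glands held 2.63, 4.19 and 4.83 Adamts18 reads and the Adamts18-/- glands held 2.48, 2.84 and 3.51. The ratio was lower in the mutant gland of each mouse, by -0.09, -0.56 and -0.46 on the log2 scale, and its means were 3.88 ± 1.13 and 2.94 ± 0.526 (SD, n = 3 each). When the libraries were scaled to the myoepithelial markers, the log2 fold change of Adamts18 was -0.37 with an unadjusted p of 0.109, while the median over all genes moved to 0.45. Such a scaling shifts all genes by about the same amount, so the distance of Adamts18 from the median gene is the same as before by construction. Scaled to the pan-epithelial markers, Adamts18 was at -0.43 with an unadjusted p of 0.249 and the median over all genes was 0.40. In such bulk samples, fewer myoepithelial cells and less RNA per cell cannot be told apart, and the part of the markers in the Adamts18 difference was not tested beyond this scaling.

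**Figure D3:**
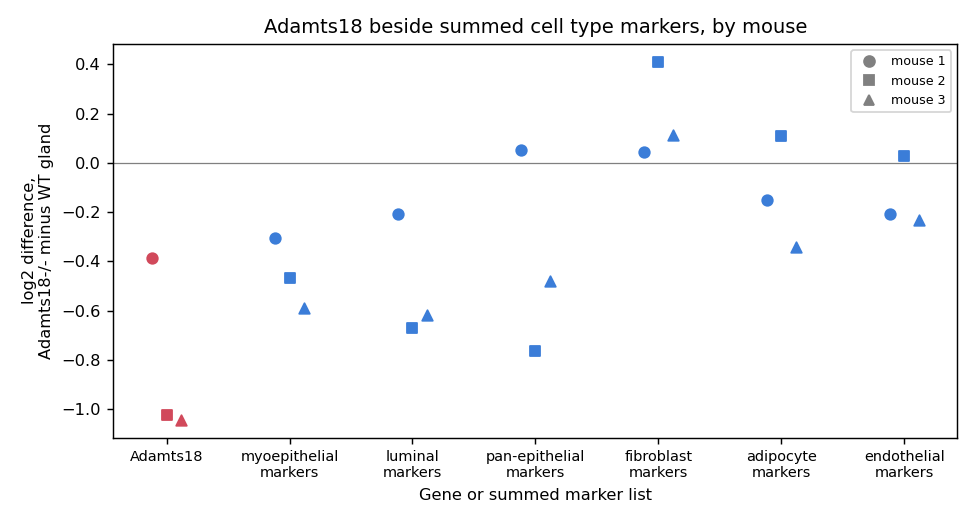
Log2 difference between the Adamts18-/- and the WT gland of each mouse, for Adamts18 (red) and for the summed CPM of 6 marker lists (blue), with symbols for mice 1 to 3. Adamts18, the myoepithelial and the luminal sums lie below 0 in all 3 mice, and Adamts18 lies lowest in each mouse, with -0.39, -1.02 and -1.04.

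Which genes varied over the glands as Adamts18 did? Over the 6 libraries, the log2 CPM of Trim29, Rhov, Gm12254, Unc79 and Cdh3 had the highest Pearson correlations with that of Adamts18 among the genes tested, at 0.998, 0.997, 0.993, 0.986 and 0.983. These values describe 6 libraries that share hosts and composition, and were picked from 17345. Trim29 is a basal epithelial gene and Cdh3 encodes P-cadherin, an adhesion molecule of basal and myoepithelial cells. Cdh3 had 17.2, 33.1 and 25.2 CPM in WT and 14.2, 17.9 and 16.0 CPM in Adamts18-/- glands. All 5 genes were lower in each mutant gland, with log2 fold changes of -0.48 for Trim29, -0.52 for Rhov, -0.53 for Gm12254, -0.35 for Unc79 and -0.61 for Cdh3. These differences follow from the choice of genes by their likeness to Adamts18 over the same libraries and are given without a test.

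The 10 tested genes nearest to Adamts18 on chromosome 8, 5 on either side, did not pass the thresholds. Their log2 fold changes lay between -0.26 and 0.16 with a median of -0.02, and the smallest unadjusted p was 0.202. The closest on the side of lower coordinates was Syce1l, a component of the synaptonemal complex, at 0.16 (SE 0.202), and the closest on the other side was Nudt7, a peroxisomal hydrolase, at -0.10 (SE 0.107). Of the 10, only Wwox was lower in all 3 mutant glands, at -0.14 (SE 0.0958).

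Was the closest relative, Adamts16, at another level where the graft lacked Adamts18? It had 1.78, 0.962 and 1.47 CPM in the WT glands and 2.24, 1.12 and 0.830 CPM in the Adamts18-/- glands of mice 1, 2 and 3, from 51 to 124 reads. The mutant gland was higher in mice 1 and 2 and lower in mouse 3, and the groups overlapped. The log2 differences were 0.33, 0.21 and -0.80. The fit gave -0.08 (SE 0.302, 95% interval -0.87 to 0.71, unadjusted p = 0.804 by edgeR).

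The direction of the Adamts16 difference depended on 1 mouse. Without mouse 3 its log2 fold change was 0.29, and without mouse 1 it was -0.30, neither past the threshold. It was also positive under the scalings to pan-epithelial and myoepithelial markers, at 0.30 and 0.37, both below the shift of the median gene under these scalings. The interval of the fit holds both a fall and a rise of Adamts16 by more than 1.5 times.

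The proteoglycan-cleaving members Adamts1, Adamts4, Adamts5, Adamts9 and Adamts15 did not pass the thresholds in either direction. Adamts1 had 136.6, 109 and 53.4 CPM in the WT glands and 109, 163 and 43.9 CPM in the Adamts18-/- glands, so that both glands of mouse 3 were lowest and the groups overlapped. Its log2 differences of -0.33, 0.57 and -0.28 gave a fitted value of -0.01 (SE 0.203, 95% interval -0.54 to 0.52). Adamts4 was the least abundant of these enzymes and the least even between the pairs. It had 3.86, 2.32 and 1.33 CPM in WT and 1.85, 3.86 and 2.00 CPM in Adamts18-/- glands, so mouse 1 went down by a log2 difference of -1.04 while mice 2 and 3 went up by 0.73 and 0.58. The fitted value for Adamts4 was 0.10 (SE 0.417, 95% interval -1.0 to 1.19).

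Adamts5, the main aggrecan-degrading enzyme of cartilage, had 122, 87.3 and 87.4 CPM in WT and 128, 100.6 and 74.0 CPM in Adamts18-/- glands. The mutant gland was higher in mice 1 and 2 and lower in mouse 3, and the fitted log2 fold change was 0.01 (SE 0.105, 95% interval -0.27 to 0.29). Adamts9 had 58.1, 62.2 and 36.2 CPM in WT glands against 49.4, 78.6 and 30.4 CPM, again with overlapping groups, and a log2 fold change of -0.05 (SE 0.143, 95% interval -0.42 to 0.33). The narrowest interval belonged to Adamts15, with 73.1, 99.3 and 63.1 CPM in WT and 67.2, 102 and 67.8 CPM in Adamts18-/- glands. Its log2 fold change was 0.01 (SE 0.0749, 95% interval -0.19 to 0.20).

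Adamts2, the procollagen propeptidase, had 218, 169.8 and 142 CPM in the WT glands and 210, 195 and 121 CPM in the Adamts18-/- glands. Mouse 2 alone was higher on the mutant side, and the log2 fold change was -0.03 (SE 0.107, 95% interval -0.31 to 0.25). Its substrates Col1a1 and Col3a1 were at 0.19 and 0.41 with unadjusted p of 0.218 and 0.105 by edgeR. Adamts10 had 99.4, 99.1 and 92.2 CPM in WT and 91.4, 86.0 and 105.6 CPM in Adamts18-/- glands, with a log2 fold change of -0.04 (SE 0.100, 95% interval -0.31 to 0.22). Fbn1, which encodes the fibrillin-1 that Adamts10 binds, was higher in all 3 mutant glands, at 0.27 with an unadjusted p of 0.0777 by edgeR.

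Adamts12 had the most positive log2 fold change of the 10 genes. In the WT glands it had 64.0, 57.8 and 32.3 CPM, and in the Adamts18-/- glands 55.1, 76.2 and 54.5 CPM. The mutant gland was lower in mouse 1 and higher in mice 2 and 3, and the groups overlapped, since the lowest value was that of the WT gland of mouse 3 and the others interleaved. The log2 differences were -0.22, 0.40 and 0.76, and the fit gave 0.31 (SE 0.198, 95% interval -0.21 to 0.83, unadjusted p = 0.180 by edgeR). Without mouse 1 it was 0.58 with an unadjusted p of 0.0172, past the thresholds. In mouse 3, where the difference was largest, B and T cell marker sums were also higher on the mutant side, by 2.41 and 1.43 (log2). In mouse 2, where Adamts12 was higher as well, these sums were lower, at -0.43 and -0.60. In mouse 1 they were at -0.36 and -0.24. The part of these cells in the Adamts12 difference was not tested.

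**Figure D4:**
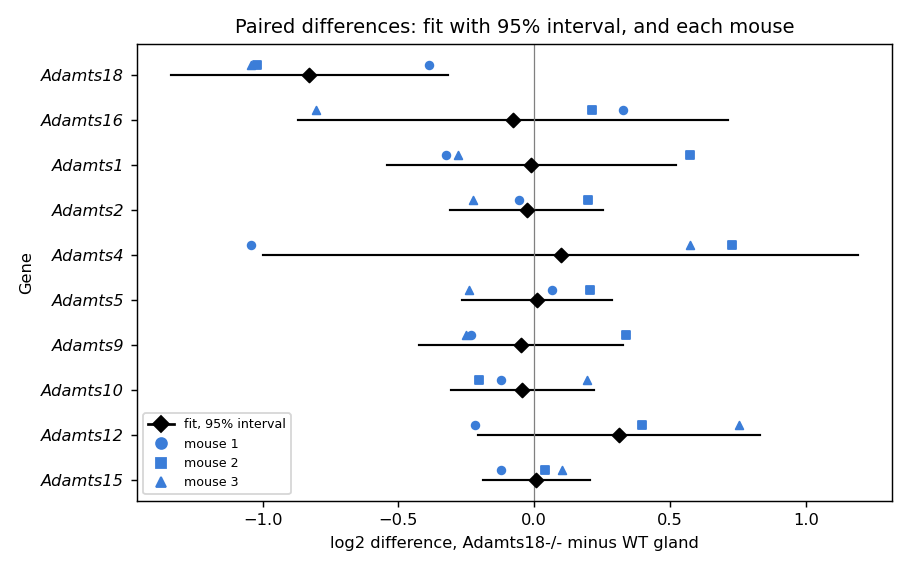
Log2 difference of the Adamts18-/- against the WT gland for the 10 genes, with black diamonds and bars for the fitted value and its 95% interval and blue symbols for each mouse. Only the interval of Adamts18 (-1.34 to -0.32) does not include 0, and the widest is that of Adamts4.

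Apart from Adamts18, fitted log2 fold changes ranged from -0.08 to 0.31 with a median of -0.01, beside a median of 0.00 over all genes tested. Of these 9 genes, 5 were negative and 4 positive with the usual scaling, whereas all 9 were positive when the libraries were scaled to the pan-epithelial or the myoepithelial markers, scalings that raised the median gene by 0.40 and 0.45 and by themselves turn values this near 0 positive. None of the 9 moved in the same direction in all 3 mice, which 23.4% of all genes did. None of the 10 genes had groups that did not overlap, which 4.94% of all genes had.

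In most of these genes, most of the spread lay between the numbered mice. These differ in host, donor and experiment, which cannot be told apart, and the word host below covers all of them. When the sum of squares of log2 CPM was divided into host, genotype and remainder, the host took 52.9% for Adamts18 and genotype took 41.4%. The host has more levels than genotype and takes on average a larger portion where neither has an effect. The portions were not corrected for this. Among the other 9 genes, the host's portion ranged from 16.4% for Adamts10 to 97.1% for Adamts15, with a median of 89.0%, and the genotype's portion was at most 16.9%, for Adamts12. The glands of 1 host thus resembled each other in Adamts1 (91.1%), Adamts2 (91.7%), Adamts5 (89.0%) and Adamts9 (91.1%). For Adamts10 the remainder took 78.7%, on a small total spread.

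Pairs of members ranged from closely alike to opposed over the 6 glands. Adamts1 and Adamts9 had a Pearson correlation of 0.96 on log2 CPM, Adamts2 and Adamts5 one of 0.93, and Adamts1 and Adamts2 one of 0.91. Adamts4 followed Adamts12 at 0.88. Adamts10, the third most abundant per kilobase, had negative correlations with the other abundant members. These ran from -0.55 with Adamts9 and -0.52 with Adamts1 to -0.29 with Adamts15 and only -0.08 with Adamts12. Adamts5 and Adamts15 were at -0.05. Adamts1 and Adamts5 neighbour each other on chromosome 16, at chr16:85793827-85803113 and chr16:85856173-85901828 of GRCm38, and had a correlation of 0.71. For Adamts18 the highest value was 0.51, with Adamts15, and the lowest was -0.44, with Adamts5. It was at -0.43 with Adamts16. These describe 6 libraries that share hosts and cell composition.

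Genes around the proteases were read from lists of relatives, activators, inhibitors, substrates and upstream signals. Of the 9 other Adamts genes, 0 passed the thresholds, with log2 fold changes that were negative in 5 and positive in 4. The proteoglycanases Adamts8 and Adamts20 and the matrix protease Adamts7 were lower in all 3 mutant glands, as were 12.7% of all genes. Their log2 fold changes were -0.32, -0.24 and -0.13, with unadjusted p of 0.128, 0.116 and 0.290 by edgeR. The Adamts-like genes encode secreted relatives without a protease domain. All 7 had negative log2 fold changes with a median of -0.20, and 1 passed the thresholds.

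That gene was Papln, which encodes papilin, a glycoprotein of basement membranes. It had 102.7, 127 and 60.7 CPM in WT and 72.4, 76.6 and 29.3 CPM in Adamts18-/- glands. Every mutant gland was below its partner, although the groups overlapped. The log2 differences were -0.50, -0.73 and -1.05, and the fitted log2 fold change was -0.76 (SE 0.121, 95% interval -1.08 to -0.44, unadjusted p = 0.00188 and adjusted p = 0.987 by edgeR). The adjusted p ranged from 0.000612 to 1.0 over the alternatives. Without the pairing, the unadjusted p of Papln was 0.157. Scaled to the pan-epithelial markers it was 0.303, and scaled to the myoepithelial markers the log2 fold change was -0.31 with an unadjusted p of 0.0418. These scalings moved the median gene to 0.40 and 0.45.

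Of 4 convertases that activate ADAMTS proteases by removing the propeptide, 0 passed the thresholds. Furin was the only one lower in all 3 mutant glands, at -0.13 (SE 0.0753). Among 5 inhibitors (the Timp genes and Reck), 0 passed. The log2 fold change was negative in 4 of them and positive in Timp1, at 0.61 (SE 0.350). Timp3, which encodes the best known tissue inhibitor of ADAMTS enzymes, had 1221, 1445 and 766 CPM in WT and 1055, 1430 and 506 CPM in Adamts18-/- glands, at a log2 fold change of -0.27 (SE 0.154). The log2 differences of Timp3 were -0.21, -0.02 and -0.60 in mice 1 to 3, so its level was lower in every mutant gland.

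Of 18 substrates of the family, 16 were tested, and 0 passed the thresholds. Their log2 fold changes were negative in 9 and positive in 7, with a median of -0.05. Acan and Bcan, the cartilage and brain proteoglycans, were below the filter. Fn1, encoding fibronectin, was higher in all 3 mutant glands at 0.24 (SE 0.132, unadjusted p = 0.128 by edgeR). Vcan, encoding versican, was at 0.14 (SE 0.112). Vwf, encoding the von Willebrand factor of endothelium, had an unadjusted p of 0.0439 by edgeR at a log2 fold change of -0.23, a smaller change than the fold threshold. The sum of 8 endothelial markers differed by -0.21, 0.03 and -0.23 on the log2 scale in mice 1 to 3, and its part in the Vwf value was not tested.

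Upstream of Adamts18, 1 of 16 genes of the hormone and Wnt axis passed the thresholds. Wnt4, the Wnt ligand that progesterone induces in luminal cells, had 19.7, 29.1 and 29.4 CPM in WT and 18.5, 21.2 and 19.9 CPM in Adamts18-/- glands. Each mutant gland was below its partner, with log2 differences of -0.09, -0.46 and -0.56, and the fit gave -0.37 (SE 0.120, unadjusted p = 0.0298 and adjusted p = 0.987 by edgeR). The adjusted p of Wnt4 ranged from 0.601 to 1.0 over the alternatives, and its unadjusted p was 0.126 without mouse 2, 0.0791 without mouse 3 and 0.0692 without the pairing. Scaled to pan-epithelial or myoepithelial markers Wnt4 stood at 0.03 and 0.08, below the median gene, which these scalings moved to 0.40 and 0.45. Lrp5, a Wnt coreceptor, had an unadjusted p of 0.0445 by edgeR at -0.21, within the fold threshold. Pgr, the progesterone receptor, was at -0.27 (SE 0.150, unadjusted p = 0.142 by edgeR), and Axin2, a general Wnt target, was at 0.04. Other genes of this list lay further from 0 without passing the thresholds. Lgr5, Wif1, Lgr6 and Nkd1 were at -1.03, -0.52, -0.46 and -0.27, whereas Lef1 and Tcf7 were at 0.58 and 0.41. Of these, only Nkd1 went the same way in all 3 mice. Lgr5 (SE 0.496), Wif1 (SE 0.624) and Lgr6 (SE 0.210) were higher in the mutant gland of mouse 1 and lower in mice 2 and 3. Lef1 (SE 0.740) and Tcf7 (SE 0.496) were lower in mice 1 and 2 and higher in mouse 3 alone, by 2.50 and 1.83. Of the 16 genes, 12 had a negative log2 fold change and 4 a positive one, with a median of -0.20.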

How the data were processed

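The deposited file holds raw read counts per gene symbol that the authors made from single-end 85-base reads, without normalization, 1 column per gland. The submitters' processing notes name bcl2fastq 2.18, TopHat2 2.0.11, featureCounts 1.6.2, edgeR and the mm9 build, and whether reads were counted by strand is not given in the sources used here. Coordinates, exon lengths and sequences come from the GENCODE M21 annotation of GRCm38, not the submitters' build. No column belonged to samples outside the series.

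Counts were analysed in R 4.3.3 with edgeR 4.0.16. Genes were kept by filterByExpr, scaled by TMM and tested by the quasi-likelihood test with a block for the host mouse. Benjamini-Hochberg adjustment ran over 17345 genes. CPM used the TMM factors, and log2 CPM a prior count of 2. The glands of a mouse share a host. Their deviations from the group means correlated at 0.512, 0.505 and 0.639 in mice 1, 2 and 3. Each group thus holds 3 animals, and the read floor covers counting error only.

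The members and lists were chosen with earlier results of these data known. Named genes were the 10 members, listed genes with an unadjusted p under 0.05 or a role tied to a member, the 5 nearest tested genes on each side of Adamts18 and the 5 most correlated with it. Col3a1, Fbn1, Furin, Timp1, Timp3, Axin2, Lgr5, Lgr6, Wif1, Nkd1, Lef1, Tcf7, Adamts7, Adamts8 and Adamts20 were named after their values were seen. So were the markers Krt5, Krt14, Actg2 and Acta2. Zinc sites were found by a search for their conserved residue pattern in translated coding sequences, and coding sequences were aligned globally. The fit was tested on simulated counts. Alternatives were DESeq2 1.42.0, limma-voom (limma 3.58.1), a fit that ignored the pairing, RLE and library size scaling, scaling to 24 pan-epithelial or 12 myoepithelial genes, no filter, at least 10 reads in every library, and each mouse left out.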

Additional observations from a re-analysis of the deposited data

How the results depend on the processing

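With 3 pairs of glands, the paired edgeR fit called 0 members by adjusted p, and the intervals of Adamts4 and Adamts16 were the widest. The log2 fold change of Adamts18 stayed negative in all 12 alternative fits, from -1.04 to -0.37. It lost the threshold without the replicate block (-0.90), when scaled to the pan-epithelial (-0.43) or myoepithelial genes (-0.37) and without mouse 2 (-0.72). In these 4 fits the number of members lower past the thresholds was 0 in place of 1, and it was also 0 by adjusted p under 0.05. The share of all genes lower past the thresholds in these fits was 0.721%, 0.156%, 0.161% and 1.22%, in that order. Leaving out each mouse in turn gave Adamts18 values of -1.04 to -0.72. The number higher, 0, became 1 under pan-epithelial scaling, beside 7.28% of all genes, and 6 under myoepithelial scaling, beside 61.8%. These scalings moved the median gene by 0.40 and 0.45. Leaving out each mouse in turn gave 0 to 1 for either count, with Adamts12 higher without mouse 1. Of all genes, 1.22% to 2.73% were then lower and 1.03% to 3.34% higher past the thresholds. Adjusted p was under 0.05 for 4 members under myoepithelial scaling, where it was so for 8351 of all 17345 genes, and for 0 members in the other alternatives.

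Signs turned mostly in values near 0. Scaled to pan-epithelial and to myoepithelial genes, the log2 fold changes were 0.30 and 0.37 for Adamts16, 0.38 and 0.44 for Adamts1, 0.37 and 0.43 for Adamts2, 0.35 and 0.41 for Adamts9, 0.35 and 0.41 for Adamts10, 0.026 and 0.083 for Wnt4, 0.18 and 0.24 for Lrp5, 0.16 and 0.22 for Vwf, 0.13 and 0.19 for Pgr, 0.047 and 0.10 for Unc79, 0.30 and 0.36 for Nudt7, and 0.25 and 0.31 for Wwox. Without the replicate block, Adamts1 stood at 0.077 and Adamts9 at 0.018. Library size scaling gave -0.015 for Adamts5 and -0.019 for Adamts15, and no filter gave -0.0013 for Adamts15.

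With each mouse left out in turn, values ranged from -0.30 to 0.29 for Adamts16, from -0.30 to 0.15 for Adamts1, from -0.14 to 0.079 for Adamts2, from -0.25 to 0.66 for Adamts4, from -0.087 to 0.14 for Adamts5, from -0.24 to 0.061 for Adamts9, from -0.15 to 0.037 for Adamts10, from -0.032 to 0.070 for Adamts15 and from -0.20 to 0.027 for Nudt7. The cause of these turns was not tested.

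Over all genes, 319 were lower and 203 higher past the thresholds. These counts were 125 and 218 without the replicate block, 297 and 340 by DESeq2, 343 and 345 by limma-voom, 27 and 1263 under pan-epithelial scaling, 28 and 10715 under myoepithelial scaling, 416 and 352 without a filter, 481 and 182 without mouse 1, 214 and 319 without mouse 2, and 286 and 581 without mouse 3. By adjusted p, 8351 genes were called under myoepithelial scaling, 281 under pan-epithelial scaling, 268 without mouse 3 and 71 by DESeq2, and 0 in the other fits. Over the 28 results recomputed under the alternatives, 258 values kept their direction and their side of the threshold and 43 turned sign, some of which also crossed the threshold.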
